A study of Mus musculus with 2 samples.

Results

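The complement genes measured in tumor-sorted CD11b+Ly6G+ cells were followed across cell classes and between Smad3-WT and Smad3-KO mice. The 9 genes, chosen by their symbols, were the 3 chains of C1q (C1qa, C1qb and C1qc), C3, factor B (Cfb), properdin (Cfp), the anaphylatoxin receptors C3ar1 and C5ar1, and the C1 inhibitor (Serping1), out of 31053 genes in the count matrix. Cells came from LLC tumors, a mouse lung carcinoma line grown under the skin of C57BL/6 mice aged 8 to 12 weeks that were either Smad3+/+ (Smad3-WT) or Smad3-/- (Smad3-KO, lacking Smad3 in all cells of the host, while the LLC cells were the same in both). For each genotype 8 tumors were pooled into 1 library made with a 5′ single-cell kit. With 1 library per genotype there was no replicate, so no test of genotype was possible, and every interval given is an exact 95% interval that covers counting error only.

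Complement is a cascade of plasma proteins that tags and lyses targets and attracts leukocytes. C1q, assembled from A, B and C chains, recognises targets of the classical pathway and is made largely by macrophages rather than by the liver. C3 is the hub at which the pathways meet, factor B and properdin drive and stabilise the alternative pathway convertase, and the C3a and C5a fragments signal through C3ar1 and C5ar1 on myeloid cells. C1 inhibitor blocks the proteases C1r and C1s that are bound to C1q.

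The 3 C1q chain genes lie side by side on the minus strand of chromosome 4 (GRCm38): C1qb at 136880129 to 136886187, C1qc at 136889804 to 136893065 and C1qa at 136895917 to 136898803. Promoters of 300 bases (250 before and 50 from the transcription start, RefSeq, GRCm38.p6) were available for 6 of the 9 genes, namely C1qb, C1qc, C3, C3ar1, C5ar1 and Cfp. They were searched on both strands for GAGGAA, the core bound by the myeloid factor PU.1, for the interferon-stimulated response element by its usual consensus, and for TTCNNNGAA, the STAT site. GAGGAA was found in 3 of the 6, those of C1qb, C1qc and Cfp, and 28.3% of all 32851 promoters of this length hold it. The other motifs, held by 3.44% and 8.3% of promoters, were found in 0 of the 6, so no match of one motif overlapped another. The promoters shown are the 3 with a match. The promoter of C3ar1, a gene also highest in macrophage-like cells, had no match, and neither had those of C3 and C5ar1. Capitals mark GAGGAA or its reverse complement, the 3 sequences run 5′ to 3′ on the minus strand, and a match is a description of these letters only.
C1qb, chr4:136886151-136886450: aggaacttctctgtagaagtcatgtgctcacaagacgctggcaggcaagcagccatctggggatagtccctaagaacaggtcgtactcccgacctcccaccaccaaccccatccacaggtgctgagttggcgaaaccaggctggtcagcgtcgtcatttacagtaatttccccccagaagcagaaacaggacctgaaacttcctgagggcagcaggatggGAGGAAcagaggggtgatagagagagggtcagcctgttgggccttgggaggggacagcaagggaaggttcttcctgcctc
C1qc, chr4:136892865-136893164: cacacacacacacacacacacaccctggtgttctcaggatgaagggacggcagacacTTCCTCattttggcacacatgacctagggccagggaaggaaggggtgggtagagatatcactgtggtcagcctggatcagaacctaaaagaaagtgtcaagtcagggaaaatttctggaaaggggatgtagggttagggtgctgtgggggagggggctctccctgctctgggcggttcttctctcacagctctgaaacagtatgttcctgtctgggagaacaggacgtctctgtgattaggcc
Cfp, chrX:20931506-20931805: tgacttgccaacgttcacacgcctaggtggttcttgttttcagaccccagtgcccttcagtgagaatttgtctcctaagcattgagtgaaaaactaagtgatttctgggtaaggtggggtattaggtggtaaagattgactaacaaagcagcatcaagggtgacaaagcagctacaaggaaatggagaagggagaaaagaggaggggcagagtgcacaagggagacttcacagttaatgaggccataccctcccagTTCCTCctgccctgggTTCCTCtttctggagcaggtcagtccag

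The Smad3-WT library kept 3520 cells with a median of 1318.5 unique molecular identifiers (UMIs), and the Smad3-KO library kept 2433 cells with a median of 1199. Although the labels call the cells neutrophils, neutrophil-like clusters made up 51.5% of kept cells in Smad3-WT and 44.3% in Smad3-KO, and Ly6g itself was detected in 1.08% and 4.73% of cells. The other cells were macrophage-like (898 and 78 cells), B-like (3 and 572), T or NK-like (62 and 463), carcinoma-like (403 and 38), fibroblast-like (45 and 60) and dendritic-like (33 and 68), with 264 and 77 cells in cluster 8, which took no name because fewer than 3 markers of any class passed there, and which was led by Mgl2, Cd209a and H2-Eb1. Smad3 itself stood at 14.6 UMIs per 1000000 UMIs of the cells in question (CPM) in the library labelled Smad3-WT and 77.4 CPM in that labelled Smad3-KO. Since 5′ tags need not cover the disrupted part of the gene, this does not check the genotype. Xist was at 0.657 CPM and 471 CPM, an RNA of female cells, so the libraries also differed in the sex of their cells, and sex and genotype cannot be told apart in any ratio between them. Of the barcode sequences, 73 occurred in both libraries.

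C1q was highest in macrophage-like cells as a class, although 542 of the 898 Smad3-WT cells in it held no C1q UMI. In the Smad3-WT library, 66.9% (66.2 to 67.5) of all C1q UMIs, summed over the 3 chains, lay in macrophage-like cells, which were 25.5% of cells. Their summed C1q level was 4060 CPM (3994 to 4128), followed by 2930 CPM in cluster 8, 1553 CPM in fibroblast-like, 626 CPM in T or NK-like, 448 CPM in carcinoma-like, 76.5 CPM in neutrophil-like and 29.4 CPM in dendritic-like cells. Each level differed from the next in this order beyond counting error, except those of the neutrophil-like and dendritic-like cells. In the Smad3-KO library macrophage-like cells led at 2114 CPM (1907 to 2336) with 59.5% (55.6 to 63.3) of C1q UMIs, followed by cluster 8 at 431 CPM, and no C1q UMI was seen in the carcinoma-like or dendritic-like cells, which allows up to 50 CPM and 14.4 CPM at a floor of 3 UMIs. The 38 Smad3-KO carcinoma-like cells shared a cluster with 403 Smad3-WT cells, and their median depth was 642.5 UMIs against 13152. In them carcinoma markers summed to 650 CPM and fibroblast markers to 6716 CPM, so the class name is uncertain for Smad3-KO.

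**Figure D1:**
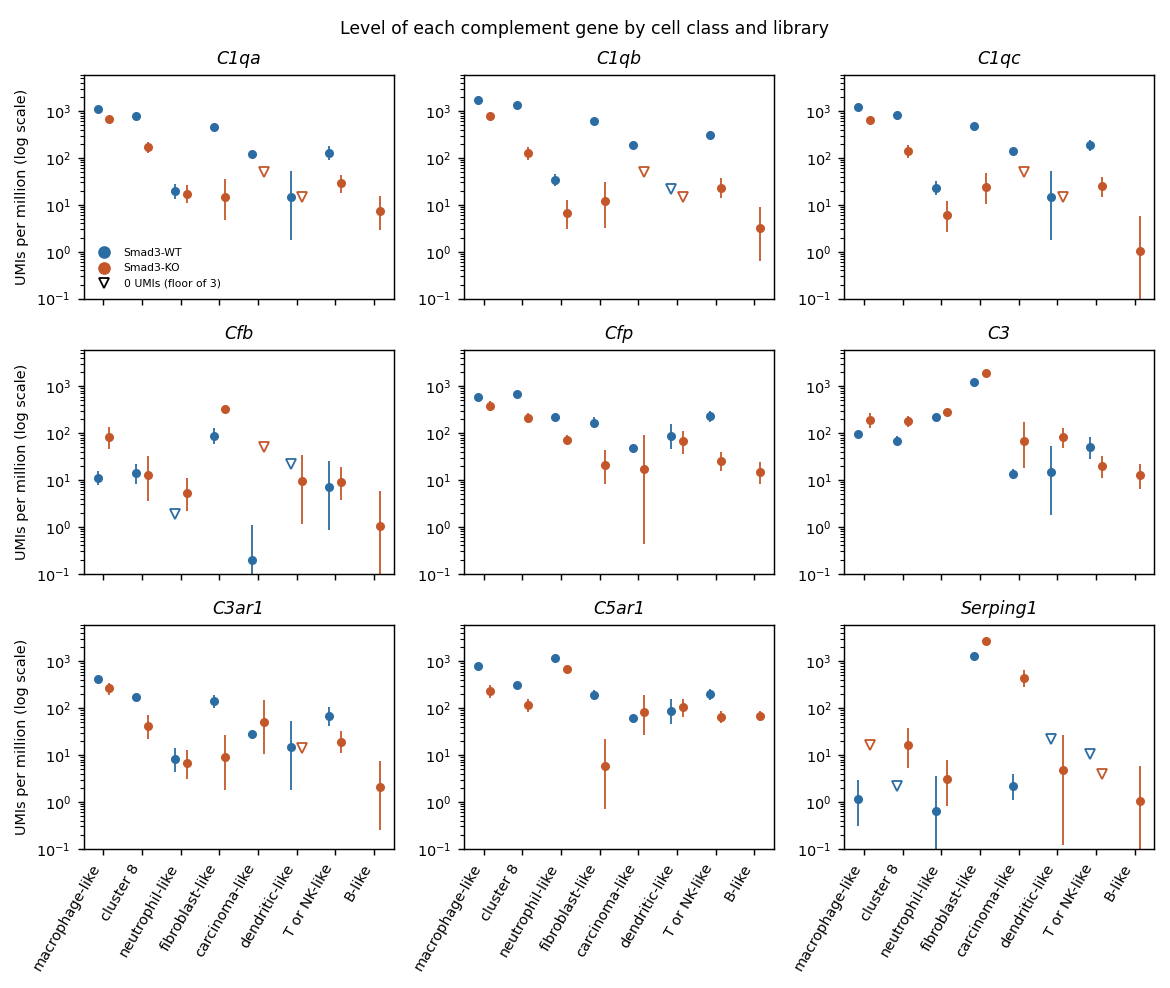
Level of each of the 9 complement genes in each cell class, in CPM on a log axis, for Smad3-WT (blue) and Smad3-KO (orange). Points are the level over all cells of the class, bars the 95% counting interval, and open triangles the floor of 3 UMIs where 0 were counted, and the 3 Smad3-WT B-like cells are left out. C1q was highest in macrophage-like cells in both libraries, C5ar1 in neutrophil-like cells, and C3, Cfb and Serping1 in fibroblast-like cells.

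Within the macrophage-like class, C1q separated a pair of clusters. Cluster 9, led by Ccl8, Cbr2, Folr2 and Lyve1, genes typical of tissue-resident macrophages, stood at 11383 CPM (11175 to 11594) in Smad3-WT, although no complement gene had been used to form clusters. Cluster 3, led by Ppbp, Ccl24, Vcan and Arg1, stood at 1141 CPM (1099 to 1183). It passed 9 of 12 macrophage and all 8 monocyte markers, so its name does not set it apart from monocytes. With 30 principal components, 463 Smad3-WT cells were named macrophage and 464 monocyte. Cluster 3 held 739 of the 898 Smad3-WT macrophage-like cells, and its level lay below those of cluster 8 and fibroblast-like cells. Cluster 9 held 159 of the Smad3-WT cells and 53.4% (52.8 to 54.1) of that library's C1q UMIs. At least 1 chain was seen in 98.1% of its cells at full depth and in 93.1% after each cell was thinned to 500 UMIs, with all 3 chains in 54.1% of thinned cells. In cluster 3 the thinned share with any chain was 17.2%, and in B-like cells of the Smad3-KO library, which should lack C1q, it was 0.35% (median depths 6048, 3014 and 1245 UMIs). Over the whole macrophage-like class any chain was seen in 39.6% of Smad3-WT and, at a lower depth, 53.8% of the 78 Smad3-KO cells, and in 30.6% and 43.6% after thinning.

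The C1q chains kept similar proportions in several Smad3-WT classes. C1qb made up 41.7% of C1q UMIs in macrophage-like cells (40.9 to 42.5), 41.3% in carcinoma-like cells (39.2 to 43.4), 39.8% in fibroblast-like cells (35.4 to 44.3) and 44.6% in neutrophil-like cells (35.6 to 53.9). It was somewhat higher in cluster 8, at 45.8% (44.3 to 47.3), and in cluster 3, at 49.6% (47.8 to 51.5), than in cluster 9, at 39.7% (38.8 to 40.6). T or NK-like cells had C1qb at 49.7% (42.1 to 57.4) of 175 UMIs, 65 of them in 1 cell. Their C1qa was 20.6% (14.8 to 27.3), against 27.9% (27.1 to 28.6) in macrophage-like cells. In Smad3-KO cluster 9 the order of the chains changed, with C1qa at 40.6% (33.9 to 47.5) of 212 UMIs against 29.1% (28.2 to 29.9) of 11364 UMIs in Smad3-WT, and C1qb at 30.7% (24.5 to 37.3). C1qa also led in Smad3-KO cluster 8, at 38.8% (30.5 to 47.6), with C1qb at 29.1% (21.6 to 37.6) of 134 UMIs. These lay in 12 cells, with 55 in 1 cell. Smad3-KO cluster 3 kept the Smad3-WT order, with C1qa at 19.9% (14.2 to 26.7) and C1qb at 46.2% (38.6 to 54) of 171 UMIs. They lay in 19 cells, with 63 in 1 cell. The intervals do not cover spread between cells, so 1 cell can weigh on either order.

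In neutrophil-like cells C1q, relative to macrophage-like cells, lay below the median of macrophage marker genes and within their range. Its level there was 0.0189 (0.0156 to 0.0225) of that in macrophage-like cells in Smad3-WT and 0.0143 (0.0101 to 0.0199) in Smad3-KO. The same quotient for macrophage marker genes, a list without any complement gene, had a median of 0.0317 (range 0.0115 to 0.301, 12 markers) and 0.0269 (range 0.00663 to 0.157, 11 markers). Whether this C1q RNA came from neutrophils or from other cells was not tested. In Smad3-KO neutrophil-like cells C1qa made up 57.5% (40.9 to 73) of 40 C1q UMIs. In Smad3-KO macrophage-like cells it made up 31.3% (26.7 to 36.2) of 383. In Smad3-WT fibroblast-like cells the C1q quotient of 0.383 (0.349 to 0.419) stood near the marker median of 0.33, and in T or NK-like cells 0.154 stood beside 0.182. Carcinoma-like cells of Smad3-WT, with 10.5% of that library's C1q UMIs, had 0.11 (0.106 to 0.115) beside 0.0845 (range 0.0505 to 0.97). At least 3 markers of a pair of lineages or more were present together in 268 of these 403 cells. Cluster 8 of Smad3-WT was above the marker median but within the range, at 0.722 (0.697 to 0.747) beside 0.382 (range 0.0358 to 1.07), and in Smad3-KO it was 0.204 (0.166 to 0.249) beside 0.188.

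**Figure D2:**
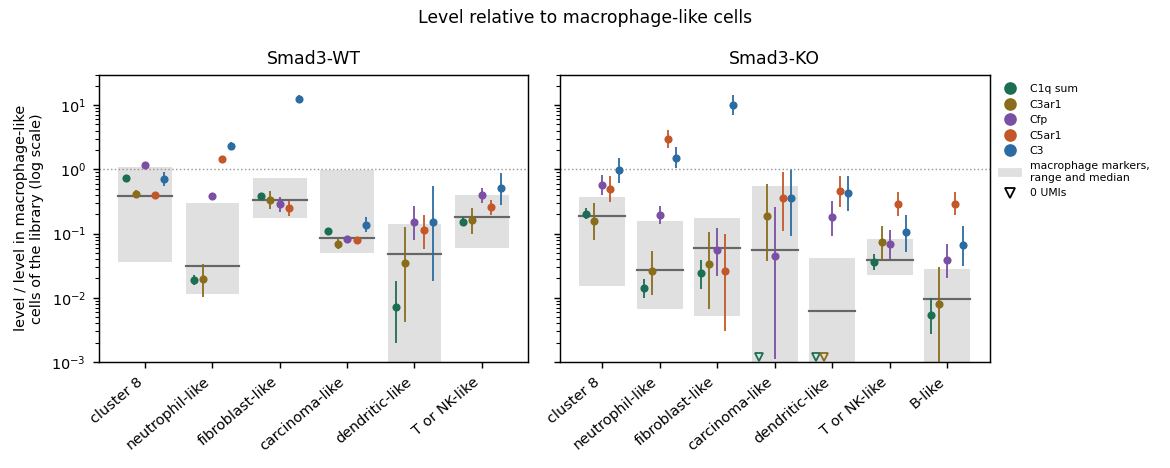
Level of C1q, C3ar1, Cfp, C5ar1 and C3 in each cell class divided by the level in macrophage-like cells of the same library, on a log axis. Grey boxes give the range and the grey line the median of the macrophage markers, bars are 95% counting intervals, and triangles mark 0 UMIs. In neutrophil-like cells C1q and C3ar1 fell within the grey range in both libraries, while C5ar1 and C3 lay above 1.

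Over all kept cells the summed C1q level was 1747 CPM in Smad3-WT and 155 CPM in Smad3-KO, a ratio of 0.0889 (0.0821 to 0.0962). The class shares bear on this directly, since macrophage-like cells were 25.5% of the Smad3-WT and 3.21% of the Smad3-KO cells, and across a library fewer macrophage-like cells and less C1q RNA per cell cannot be told apart. Within macrophage-like cells C1q was 4060 CPM and 2114 CPM, a ratio of 0.521 (0.469 to 0.576). C1qa was 1132 CPM and 662 CPM (ratio 0.585, 0.484 to 0.702), C1qb 1693 CPM and 795 CPM (0.469, 0.395 to 0.554) and C1qc 1236 CPM and 657 CPM (0.532, 0.439 to 0.638), so the chains' intervals overlapped. This ratio weights cells by their depth. As a mean over cells it was 0.854, and with every cell thinned to 500 UMIs it was 0.912 (0.732 to 1.12), so the interval then included 1. C1qa alone changed direction, to 1.31 as a mean over cells and 1.43 thinned. With another seed for the clustering, which left 362 and 60 macrophage-like cells, the C1q ratio was 0.239.

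The clusters differed in this ratio. In cluster 9 C1q was 11383 CPM in Smad3-WT and 4725 CPM (4110 to 5406) in the 24 Smad3-KO cells, a ratio of 0.415 (0.361 to 0.476). It was 0.455 as a mean over cells and 0.508 (0.392 to 0.649) after thinning. The median cell carried 10178 CPM of C1q in Smad3-WT and 4685 CPM in Smad3-KO, and the highest Smad3-KO cell reached 11280 CPM. The 12 macrophage markers summed to 13010 CPM and 15201 CPM in the same cells, with Gpnmb at 0 in Smad3-KO, while the 9 neutrophil markers summed to 2990 CPM and 6642 CPM with Ly6g at 0 in both, and the part of such RNA in the ratio was not tested. In cluster 3 C1q was 1141 CPM and 1254 CPM, a ratio of 1.1 (0.937 to 1.28), with macrophage markers at 6908 CPM and 12536 CPM. Of its 171 Smad3-KO C1q UMIs, 63 lay in 1 cell. In cluster 8 it was 2930 CPM and 431 CPM, a ratio of 0.147 (0.123 to 0.175), with macrophage markers at 2625 CPM and 2431 CPM and dendritic markers at 263 CPM and 689 CPM. Among macrophage-like cells the interval of the ratio lay below 1 in cluster 9 and included 1 in cluster 3.

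**Figure D3:**
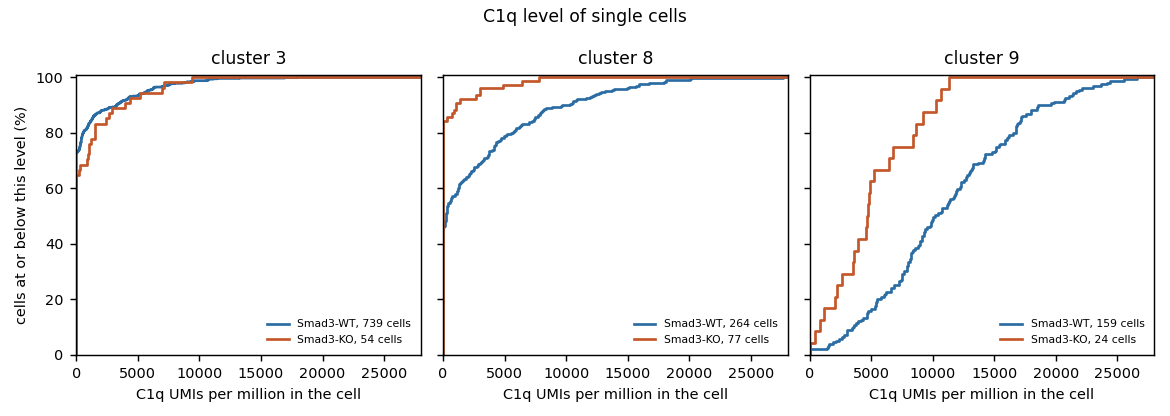
Cumulative share of cells by their summed C1q level, in CPM within the cell, in clusters 3, 8 and 9 for Smad3-WT (blue) and Smad3-KO (orange). The libraries ran together in cluster 3, while the Smad3-KO cells of cluster 9 ended at 11280 CPM, near the middle of the Smad3-WT cells, whose median was 10178 CPM.

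Over all kept cells 8 of the 9 members differed 2-fold or more, beside 31.6% of all 12612 genes with at least 20 UMIs. C1qa, C1qb, C1qc, C3ar1 and Cfp were lower in Smad3-KO, beside a background of 15.4%, and C3, Cfb and Serping1 were higher, beside 16.3%. Class shares and level per cell cannot be told apart in any of these. Fibroblast-like cells held 2.55% of Smad3-WT and 8.09% of Smad3-KO UMIs, and carcinoma-like cells 40.9% and 1.45%. Taking all members in macrophage-like cells, 3 of the 8 with at least 20 UMIs differed 2-fold or more, where 29.4% of all 8627 genes did. C1qb and C5ar1 were lower in Smad3-KO, beside a background of 15.5% of genes, and Cfb was higher, beside 13.9%. The median ratio of the 8 was 0.609, and that of all genes was 1.02. In neutrophil-like cells 3 of 7 members passed (C1qb, C1qc and Cfp, all lower) beside a background of 25.8% in either direction and 17.8% lower, and none was higher, beside 7.98%, with a median ratio of 0.599 for the members and 0.797 for all genes. Of these, C1qb (54 and 9 UMIs) and C1qc (36 and 8 UMIs) are chains whose level there, over the macrophage-like level, lay within the range of macrophage markers. That of Cfp lay above the range, at 0.381 in Smad3-WT and 0.193 in Smad3-KO. In cluster 8, 6 of 8 members were lower and C3 higher, beside 13.6% of genes lower, 9.62% higher and 23.3% in either direction.

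**Figure D4:**
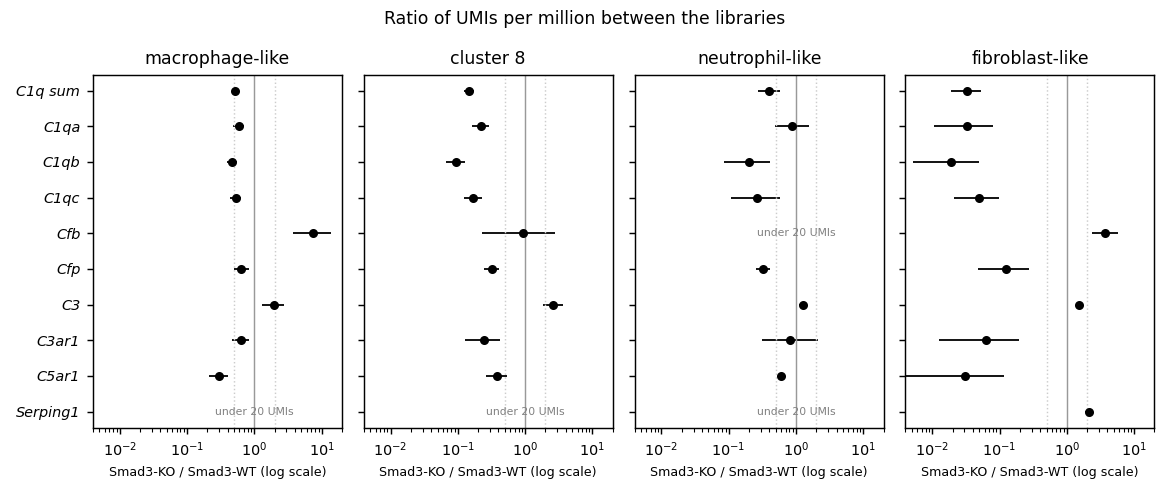
Ratio of the level in Smad3-KO to that in Smad3-WT for the summed C1q chains and each complement gene, on a log axis, in 4 groups of cells. Bars are 95% counting intervals, the solid line marks 1 and the dotted lines 2-fold either way, and the lower bar of C5ar1 in fibroblast-like cells runs past the axis. In macrophage-like cells Cfb and C3 lay above 1 and the other measured genes below it.

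C3, the central component, was highest in fibroblast-like cells, at 1212 CPM (1093 to 1341) in Smad3-WT and 1867 CPM (1723 to 2019) in Smad3-KO. It was not confined to them, because neutrophil-like cells stood second in both libraries, at 225 CPM (202 to 249) and 284 CPM (256 to 314), above macrophage-like cells at 97.1 CPM and 188 CPM. In neutrophil-like cells C3 was thus 2.31 (1.99 to 2.69) and 1.51 (1.06 to 2.22) times its macrophage-like level, far above the macrophage marker range, and 28.4% and 32.9% of each library's C3 UMIs lay in them. The 6 fibroblast markers summed to 38 CPM and 31.8 CPM in these neutrophil-like cells against 44380 CPM and 63871 CPM in fibroblast-like cells. Over all kept cells the C3 ratio of Smad3-KO to Smad3-WT was 2.68 (2.47 to 2.9), a value that the differing class shares also enter. The ratio was 1.26 (1.09 to 1.46) in neutrophil-like and 1.93 (1.32 to 2.75) in macrophage-like cells, the last from 340 and 34 UMIs. The macrophage-like ratio was 1.02 (0.267 to 2.81) thinned and 1.15 (0.414 to 2.59) with complement genes kept in the clustering, both with intervals that include 1, and 3.01 to 3.11 with other filters or 30 principal components. Neutrophil-like clusters did not share a direction, with 0.427 (0.183 to 0.856) in cluster 1, where Smad3-KO had 8 UMIs, and 2.2 (1.23 to 3.68) in cluster 5.

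The alternative pathway genes split between cell types. Properdin, which neutrophils and macrophages are known to make, was highest in Smad3-WT in cluster 8, at 668 CPM (626 to 713), and in macrophage-like cells, at 582 CPM (557 to 608), and stood at 222 CPM (199 to 247) in neutrophil-like cells. In Smad3-KO the same cells stood at 213 CPM, 375 CPM and 72.6 CPM, all below Smad3-WT beyond counting error. In neutrophil-like cells the ratio was 0.327 (0.258 to 0.411), but in cluster 1 alone it was 0.791 (0.463 to 1.27), and Smad3-KO neutrophil-like cells lay mostly in cluster 2, which held 838 Smad3-KO and 13 Smad3-WT cells and had 54.8 CPM in Smad3-KO. In macrophage-like cells the ratio was 0.645 (0.499 to 0.821), and it was 1.01 with no upper limit on UMIs and 1.16 with no quality filter.

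Factor B was scarce, with 88 UMIs over all Smad3-WT cells and 143 over those of Smad3-KO. It was highest in fibroblast-like cells, at 86.8 CPM (57.2 to 126) and 319 CPM (261 to 386). In Smad3-WT neutrophil-like cells no UMI was counted, which allows up to 1.9 CPM, and Smad3-KO neutrophil-like cells had 7. In macrophage-like cells Cfb was 11.1 CPM (7.92 to 15.2) in Smad3-WT and 82.8 CPM (46.3 to 137) in Smad3-KO, a ratio of 7.43 (3.81 to 13.8) that rested on 39 and 15 UMIs. It was 3.49 (1.39 to 7.77) with another seed and 4.05 (1.5 to 9.42) with 30 principal components.

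The receptor for C5a, C5ar1, was the only member with its highest level in neutrophil-like cells. By UMIs rather than level, macrophage-like cells held 50.6% and neutrophil-like cells 33.5% in Smad3-WT, against 3.71% and 80.3% in Smad3-KO. Neutrophil-like cells had the highest level in both libraries, 1147 CPM (1095 to 1201) in Smad3-WT and 687 CPM (643 to 733) in Smad3-KO, and macrophage-like cells came next at 782 CPM (753 to 811) and 232 CPM (167 to 313). Thinned to 500 UMIs, 39.7% and 28% of neutrophil-like cells had a C5ar1 UMI, beside 2.45% of Smad3-KO B-like cells, where the receptor is not expected (median depths 740, 1017 and 1245 UMIs). The ratio in neutrophil-like cells was 0.599 (0.552 to 0.649) against a median log2 shift of -0.33 over all genes, and 0.751 when that shift was taken out by median-of-ratios scaling. In cluster 1, the main Smad3-WT neutrophil-like cluster, the level was 1262 CPM in Smad3-WT and 1255 CPM (1031 to 1512) in Smad3-KO, a ratio of 0.994 (0.811 to 1.21). The Smad3-KO cells of cluster 2, led by Il1a and Csf3, stood at 673 CPM (624 to 725), and those of cluster 11, led by Camp, Ngp and Ltf, genes of late neutrophil precursors, at 520 CPM (416 to 643). In the other clusters present in both libraries the Smad3-KO level was lower, with a ratio of 0.499 (0.255 to 0.883) in cluster 5, from 12 Smad3-KO UMIs, and of 0.324 (0.212 to 0.52) in cluster 2, from 22 UMIs in its 13 Smad3-WT cells. Since the libraries filled different clusters, genotype and cluster cannot be told apart in the class as a whole.

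In macrophage-like cells the C5ar1 ratio was 0.297 (0.213 to 0.402), with 0.204 (0.128 to 0.31) in cluster 3 and 0.586 (0.356 to 0.911) in cluster 9. Without a quality filter, when cells were clustered anew, it was 0.944 (0.602 to 1.41). C3ar1, the receptor for C3a, was highest in the macrophage-like class, which includes cluster 3 with its monocyte markers. It stood at 419 CPM (397 to 441) in Smad3-WT and 265 CPM (195 to 351) in Smad3-KO. The ratio was 0.633 (0.464 to 0.844), nearly equal in cluster 3 at 0.63 and cluster 9 at 0.64, with the interval of cluster 9 (0.328 to 1.13) including 1. It was 0.945 (0.513 to 1.6) with no quality filter and 0.85 (0.581 to 1.2) with no upper limit on UMIs, both with intervals that include 1. Within a library the clusters had overlapping levels, at 419 CPM and 418 CPM in Smad3-WT. In neutrophil-like cells C3ar1 was at 8.22 CPM and 6.81 CPM, 0.0196 and 0.0257 of the macrophage-like level, within the range of macrophage markers. By level the receptors thus divided the myeloid cells, C5ar1 being present in both lineages and C3ar1 mainly in macrophage-like cells.

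C1 inhibitor was a fibroblast-like gene. Of all Serping1 UMIs, 96.2% in Smad3-WT (93.9 to 97.8) and 96.2% in Smad3-KO (94.7 to 97.3) lay in fibroblast-like cells, at 1299 CPM (1176 to 1432) and 2764 CPM (2589 to 2948). At least 1 UMI was seen in 88.9% (75.9 to 96.3) and 96.7% (88.5 to 99.6) of these cells, against 0.0552% and 0.371% of neutrophil-like cells. Macrophage-like cells of the Smad3-WT library held 4 UMIs, and those of the Smad3-KO library held none, which allows up to 16.6 CPM. The 38 Smad3-KO carcinoma-like cells had 26 Serping1 UMIs (433 CPM), and in them the fibroblast markers summed to 6716 CPM and the carcinoma markers to 650 CPM.

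In fibroblast-like cells 8 of the 9 members differed 2-fold or more, beside 17.9% of all 4485 genes, and they split by the cell type they marked. Cfb was higher in Smad3-KO, with a ratio of 3.67 (2.39 to 5.83) that was 2.17 as a mean over cells, and so was Serping1, with 2.13 (1.89 to 2.4), beside a background of 8.9% of genes, while C3 was 1.54 (1.35 to 1.75). The 6 macrophage or neutrophil members were lower, from 0.0193 for C1qb to 0.125 for Cfp, beside a background of 9.01%. Macrophage markers, when summed, were also lower in Smad3-KO, but by less than these members. They summed to 2733 CPM in Smad3-WT, with all 12 detected, and to 1327 CPM in Smad3-KO, with 11 detected and Mertk at 0. Divided by the macrophage-like level, their median was 0.33 (range 0.172 to 0.74) in Smad3-WT and 0.0589 (range 0.0053 to 0.176) in Smad3-KO. C1q stood at 0.383 and 0.024, C3ar1 at 0.338 and 0.0338, C5ar1 at 0.247 and 0.0257, and Cfp at 0.287 and 0.0556. All of these lay within the marker range of their library. Fibroblast markers were higher in Smad3-KO, at 44380 CPM and 63871 CPM, and the part of such RNA in the ratios was not tested. At least 3 markers of a pair of lineages or more were present together in 38 of the 45 fibroblast-like cells of Smad3-WT, and the same held for 54 of 60 in the other library. The higher Serping1 and C3 did not hold at every setting. With each cell thinned to 500 UMIs the ratios were 1.2 (0.816 to 1.78) and 1.16 (0.769 to 1.78). Both intervals included 1, and that of C3 also held its ratio of 1.54. In the 7 and 6 cells that were not such mixed droplets the ratios were 0.36 and 0.435. The parts of depth and of mixing were not tested.

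Of 48 other complement genes measured, 23 had at least 20 UMIs, 18 had 1 to 19 and 7 had 0. Fibroblast-like cells held the highest level of 9 of the 23 in Smad3-WT and 10 in Smad3-KO, and the share of all genes highest there was not computed. The 10 in Smad3-KO include Masp1 and C7, which had 2 and 4 UMIs in that library. In both libraries the genes highest in fibroblast-like cells included C1s1 and C1ra, the classical pathway proteases that C1 inhibitor blocks. C1s1 was at 460 CPM and 1241 CPM there with a ratio of 2.7 (2.23 to 3.29), and C1ra at 232 CPM and 573 CPM with a ratio of 2.47 (1.88 to 3.29). By UMIs rather than level, 53.9% of Smad3-WT C1s1 and 39.5% of C1ra lay in carcinoma-like cells, at 36.1 CPM and 13.2 CPM, against 42.8% and 43.1% in fibroblast-like cells. C1rb, a near copy of C1ra, was not counted in fibroblast-like cells of Smad3-WT and had 44 UMIs in those of Smad3-KO, and since tags may be shared between the copies its value is uncertain. C4b, the next substrate of the pathway, was 682 CPM and 716 CPM there, a ratio of 1.05 (0.869 to 1.27). In fibroblast-like cells 4 of 14 such genes were higher (C1ra, C1rb, C1s1 and Cd55), beside 8.9% of all genes, and 4 lower (C7, Itgam, Itgb2 and Cd93), beside 9.01%. Most fibroblast-like cells were mixed droplets. The ratios of these other genes were not recomputed in any class with thinned cells, without mixed droplets, or with other filters or clusterings. In macrophage-like cells C4b was 20.3 CPM and 93.8 CPM, a ratio of 4.63 (2.55 to 7.94). Its 71 and 17 UMIs there included 58 and 16 in cluster 9. The integrin chains of the complement receptors took different directions in macrophage-like cells. Itgax was at 16.8 CPM and 55.2 CPM, a ratio of 3.28 (1.49 to 6.46), from 59 and 10 UMIs. Itgam was at 458 CPM and 204 CPM, a ratio of 0.446 (0.313 to 0.617). The Itgam ratio was 0.345 (0.216 to 0.525) in cluster 3 and 0.769 (0.427 to 1.28) in cluster 9, where the interval included 1. In neutrophil-like cells 1 of 9 was higher, beside 7.98% of all genes, namely Cd55, which speeds the decay of convertases, from 1 and 20 UMIs. Cr1l and C5ar2, the other C5a receptor, were lower, beside 17.8%, and C5ar2 was 42.4 CPM and 15.1 CPM, a ratio of 0.357 (0.205 to 0.595). In cluster 1 alone the C5ar2 ratio was 0.907 (0.239 to 2.45), from 58 and 4 UMIs. That of Cr1l there was 1.46 (0.513 to 3.39), from 54 and 6 UMIs, and both intervals included 1. Cr2, the complement receptor of B cells, stood at 147 CPM in Smad3-KO B-like cells.

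The authors also deposited averages of 13 clusters of their own over both libraries, which carry other numbers than the clusters above. All C1q chains were highest in deposited cluster 7 and next in cluster 12, the clusters with the highest averages of the macrophage genes Mrc1 and Adgre1. C3ar1 was highest in cluster 5 (0.532) and next in cluster 7 (0.389). Cluster 5 had the highest average of the monocyte marker Ly6c2 (0.933), with Mrc1 at 0.235 against 0.705 in cluster 7. C5ar1 was highest in cluster 6. Serping1 was highest in cluster 2, where Col1a1, a collagen gene of fibroblasts, was also highest. C3 and Cfb were placed otherwise than in the cell classes: C3 was highest in cluster 3 (0.419), where Csf3r stood at 0.941, and had 0.176 in cluster 2, while Cfb was highest in cluster 12 (0.027) and next in cluster 2 (0.0227). Cluster 2 also held Krt8, a carcinoma marker, at 0.313. Cluster 6 had the highest average of the neutrophil gene Csf3r. Across the 13 clusters and 6687 genes, the genes most alike by Pearson's r of log2 averages were C1qc for C1qb (0.996), C1qb for C1qa (0.984, followed by Rab3il1 and Ccl8), F13a1, Msr1 and Arg1 for C3ar1 (0.989, 0.988 and 0.985), Fcgr3, Slc11a1 and Bst1 for C5ar1 (0.993, 0.989 and 0.986) and Bgn, Clec3b and Tnc for Serping1 (0.959, 0.957 and 0.955). For Cfp they were Clec4a2, Tgfbi and Cd200r1 (0.968, 0.965 and 0.957), for C3 Il18bp, Nbeal1 and Hk3 (0.916, 0.899 and 0.896), and for Cfb Klf4, Tmem106a and Sulf2 (0.922, 0.916 and 0.907). These averages share the same cells and libraries, and the values are descriptions.

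**Figure D5:**
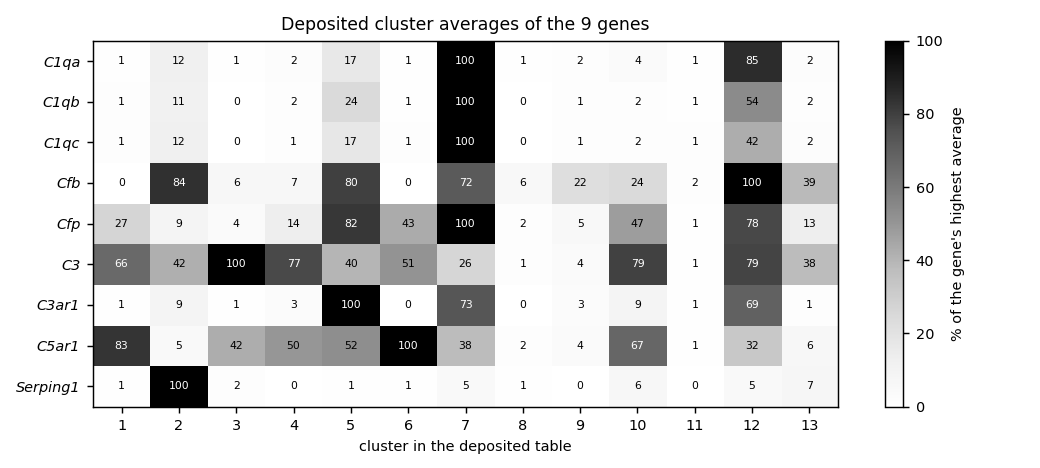
Deposited average of each complement gene in the 13 deposited clusters, as a percentage of that gene's highest cluster. The C1q chains peaked in cluster 7 and were next highest in cluster 12, Serping1 peaked in cluster 2, and C5ar1 peaked in cluster 6.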

How the data were processed

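The authors made the deposited counts, UMIs per gene and barcode, with Cell Ranger 3.0.2 on mm10. The deposited averages per library are a signal: a gene's UMIs over all UMIs, times the median of 1311. They settled which barcode suffix belongs to which library, with largest differences of 4.91e-09 and 3.58e-08. The deposited averages of 13 clusters have no stated unit (other) and were compared only within a gene. The authors' fold change and p-value columns for libraries and clusters were not used.

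Barcodes passed with 200 or more genes, less than 10% mitochondrial UMIs, and between 500 and 20000 UMIs. Louvain clusters (scanpy 1.11.5, igraph 0.11.9, 2000 variable genes, 100 principal components, 15 neighbours, resolution 1.0, seed 1) were formed without 57 complement genes. A cluster was named when 3 markers of a class were detected in 10% of its cells at 2 times the level elsewhere. No doublet caller was run, and droplets with markers of several lineages were left out as an alternative.

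Levels are UMIs summed per library and class (CPM) with exact Poisson intervals, and shares have Clopper-Pearson intervals. Ratios need 20 UMIs over both libraries and take their interval from the split of UMIs, and a gene counts as different past 2-fold. All 9 members were named, other complement genes came from a list of 49, of which 1 result is not reported here, and the 3 genes most alike across clusters were those of highest Pearson's r on log2 averages plus 0.01. The members and lists were chosen with earlier results of these data known. Intervals were tested only on data simulated with counting error alone, the model that they assume, so this did not test spread between cells. Alternatives covered filters, clustering, thinning, averaging over cells, totals, scaling and mixed droplets. Positions and promoters come from GENCODE and RefSeq. Other software was matplotlib 3.10.9, pandas 2.3.3, scipy 1.17.1, numpy 2.4.6 and Python 3.11.15.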

Additional observations from a re-analysis of the deposited data

Results flagged for a closer look

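C3 was the member whose ratio took opposite directions between cell classes. It was above 1 in carcinoma-like (4.96), cluster 8 (2.61), macrophage-like (1.93), fibroblast-like (1.54) and neutrophil-like cells (1.26), and below 1 in T or NK-like cells (0.388, from 14 and 15 UMIs). Between clusters of 1 class it was 0.427 in cluster 1 and 2.2 in cluster 5 of the neutrophil-like cells, and 3.22 in cluster 9 of the macrophage-like cells. C1qc was 1.37 in cluster 3 and 0.382 in cluster 9. The carcinoma-like ratio rested on 67 and 4 UMIs, and fibroblast markers in those cells stood at 201 CPM in Smad3-WT and 6716 CPM in Smad3-KO, whose part in it was not tested. The macrophage-like C3 ratio was 1.02 (0.267 to 2.81) thinned and 1.15 (0.414 to 2.59) with complement genes kept in the clustering. At the settings of the report the interval of each of these ratios lay to 1 side of 1, and the differences between classes or clusters were not tested.

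C1q was also counted in barcodes that the quality filter removed. The 382 Smad3-WT barcodes over the UMI limit held 3256 C1q UMIs (286 CPM, 276 to 296), and the 81 removed Smad3-KO barcodes held 29 (430 CPM, 288 to 617), both above the floor of 3 UMIs. The upper limit acted on 1 library only, since it removed 0 Smad3-KO barcodes. Those 382 barcodes held 11374838 of the 23951400 Smad3-WT UMIs. Without the limit the C1q ratio over all cells was 0.149, against 0.0889 with it.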

How the results depend on the processing

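No paired analysis was possible because each genotype has 1 library. The ratio of C1q in macrophage-like cells, 0.521, was 0.459 with 30 principal components, 0.239 with another seed, 0.912 with thinned cells, 0.854 as a mean over cells and 0.58 without mixed droplets, for which macrophage, monocyte and dendritic markers counted as 1 lineage. Single clusters were examined after seeing the data, and gave 1.1 in cluster 3 and 0.415 in cluster 9. The cluster 3 value lay across 1, but its interval (0.937 to 1.28) included 1. That of C5ar1 there, 0.297, was 0.944 with no quality filter, 0.448 with no upper limit on UMIs, 0.485 with another seed, 0.624 with complement genes kept in the clustering, 0.457 thinned, 0.427 as a mean over cells, 0.195 without mixed droplets, 0.204 in cluster 3 and 0.586 in cluster 9. Members past 2-fold there numbered 5 with no upper limit, 6 with another seed and 1 thinned. The share of all genes past 2-fold was not computed at these settings, so these counts have no background beside them. With no quality filter, no upper limit, 30 components, another seed and complement genes kept, the macrophage-like share of Smad3-WT C1q UMIs was 53.9%, 58.8%, 64.0%, 74.4% and 57.6% (76.0% without mixed droplets), and the neutrophil-like level over the macrophage-like one was 0.0143, 0.0105, 0.0117, 0.00997 and 0.00672 (0.0331 thinned, 0.0321 as a mean over cells). The C1q ratio over all cells was 0.15, 0.149, 0.107, 0.108 and 0.0612 with no filter, no upper limit, thinning, a mean over cells and no mixed droplets. The C5ar1 ratio in neutrophil-like cells was 0.675 thinned, 0.657 as a mean over cells, 0.751 with median-of-ratios scaling and 0.994 in cluster 1, examined after seeing the data. Among 120 recomputed values of single genes, 87 stayed within the counting interval, 27 moved and 6 crossed to the other side of 1. The 6 were C1qa in macrophage-like cells (1.43 thinned, 1.31 as a mean over cells), Cfp there (1.16 with no filter, 1.01 with no upper limit), and, without mixed droplets, C3 (0.435) and Serping1 (0.36) in fibroblast-like cells. The intervals of both Cfp values included 1. At resolution 0.1 no cluster was named macrophage, so those results have no value. The macrophage-like class held 898 and 78 cells, and 362 and 60 with another seed. It held 173 and 27 with complement genes kept in the clustering. With 30 principal components it held 463 and 55, while 464 and 14 cells were named monocyte. The causes were not tested.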
